A study of Mus musculus with 2 samples.

Results

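The receptors for monoamines, acetylcholine, histamine and opioid peptides were examined in the cerebellar granule cell layer of the mouse. Members were all genes whose only annotated symbol is that of an adrenergic, dopamine, serotonin, muscarinic, nicotinic, histamine or opioid receptor. This gave 45 of 18194 named genes, measured by 81 of 34958 probe sets with 1 symbol. By family they were 2 adrenergic, 4 dopamine, 13 serotonin, 3 muscarinic, 15 nicotinic, 4 histamine and 4 opioid receptor genes. No probe set named here had the symbol of a beta-adrenergic receptor, and those receptors were not analysed here. The same held for Adra1a, Adra1d, Adra2a, Adra2b, Drd5, Htr2a, Chrm2, Chrm5 and Chrna10. Counts by family therefore cover the measured genes and not every receptor of the family.

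Both samples were the granule cell layer of intact male C57BL/6J mice aged 8 weeks, with no treatment or genetic change named. The layer was cut by laser from fixed, frozen sections of 12 μm, and about 1 ng of total RNA per sample was amplified in a two-cycle protocol for an Affymetrix array. Both titles name animal 1, and nothing else says whether they came from separate animals, so the SD between the arrays may be technical (n = 2). The samples form a single group, called array 1 and array 2 here, and no test between groups was possible.

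Noradrenaline and serotonin reach the cerebellar cortex through long, thinly spread axons from the brainstem. Acetylcholine arrives with part of the mossy fibres, which end on granule neurons, and histamine comes from the hypothalamus. Most of their receptors, and all opioid receptors, act through G proteins: some lower cyclic AMP, some raise it, and others activate phospholipase C. Nicotinic receptors and the receptor built from Htr3a and Htr3b are ion channels made of several subunits. Such receptor transcripts are often scarce in brain tissue.

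The labelled tissue was checked against defining markers. All 11 measured granule neuron markers were above background on both arrays, among them the GABA-A receptor subunit Gabra6 (8189 on array 1 and 8327 on array 2) and the transcription factor Zic1 (6792 and 6716). The lowest of the 11, Slc17a7, named after its values were seen, had only 18.9 and 22.4. Background was set for each array as the 95th percentile of 87 genes typical of other organs, such as skin keratins and digestive enzymes, which gave an intensity of 13.25 on array 1 and 14.9 on array 2. A gene, taken at its brightest probe set, is called above background when it exceeded both thresholds. By construction, 5 of the 87 background genes exceeded the threshold on each array, and 1 of them, Tff1, on both. Markers of other cells were also above background on both arrays: 7 of 8 for Purkinje cells, 4 of 9 for Golgi cells and other GABAergic interneurons, 3 of 5 for unipolar brush cells, 8 of 10 for astrocytes and Bergmann glia, 7 of 9 for oligodendrocytes, 6 of 10 for endothelial and mural cells and 4 of 10 for microglia. Their summed intensities on array 1 and array 2 were 913 and 1203, 699 and 662, 2812 and 2866, 4330 and 4123, 8079 and 7634, 556 and 505, and 631 and 909, in that order, and no marker was listed at 0. Of all named genes, 46.1% were above background on both arrays. The marker shares for Golgi cells and other interneurons (44.4%) and for microglia (40%) were below this, and those of the other cell types were higher. The unipolar brush cell sums came mostly from Plcb4 (1799 and 1887), also counted below as a receptor effector, and Calb2 (913 and 854). Eomes had 94.5 and 115, and Lmx1a and Tbr1 were below background on both arrays. A receptor signal in these samples is therefore not assigned to granule neurons, and the share of other cells in it was not tested.

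Only 3 of the 45 receptor genes (6.67%) were above background on both arrays, against 46.1% of all named genes. They were the adrenergic receptor gene Adra2c and the nicotinic subunit genes Chrna7 and Chrnb2. A further 4 genes passed on 1 array, namely Htr1b, Chrm1 and Oprk1 on array 1 and Hrh3 on array 2. This is 8.89% of the receptor genes, near the 10.7% of named genes that passed on exactly 1 array. The remaining 38 genes were below the threshold on both arrays. The median intensity of the 45 genes was 4.2 on array 1 and 2.5 on array 2, against 14.9 and 15.7 over all named genes and 3.1 and 3.9 over the background genes. No receptor gene reached an intensity of 100 on either array, whereas 19.1% of named genes were at 100 or more on both. Signal also reflects how well each probe set binds its target, so these medians do not compare transcript amounts, and a gene below the threshold is not shown to be absent. With each gene taken as the mean of all its probe sets, 0 of the 45 genes passed, against 33.8% of named genes. On array 1 alone 6 of the 45 passed, against 52% of named genes, and on array 2 alone 4, against 50.8%.

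**Figure D1:**
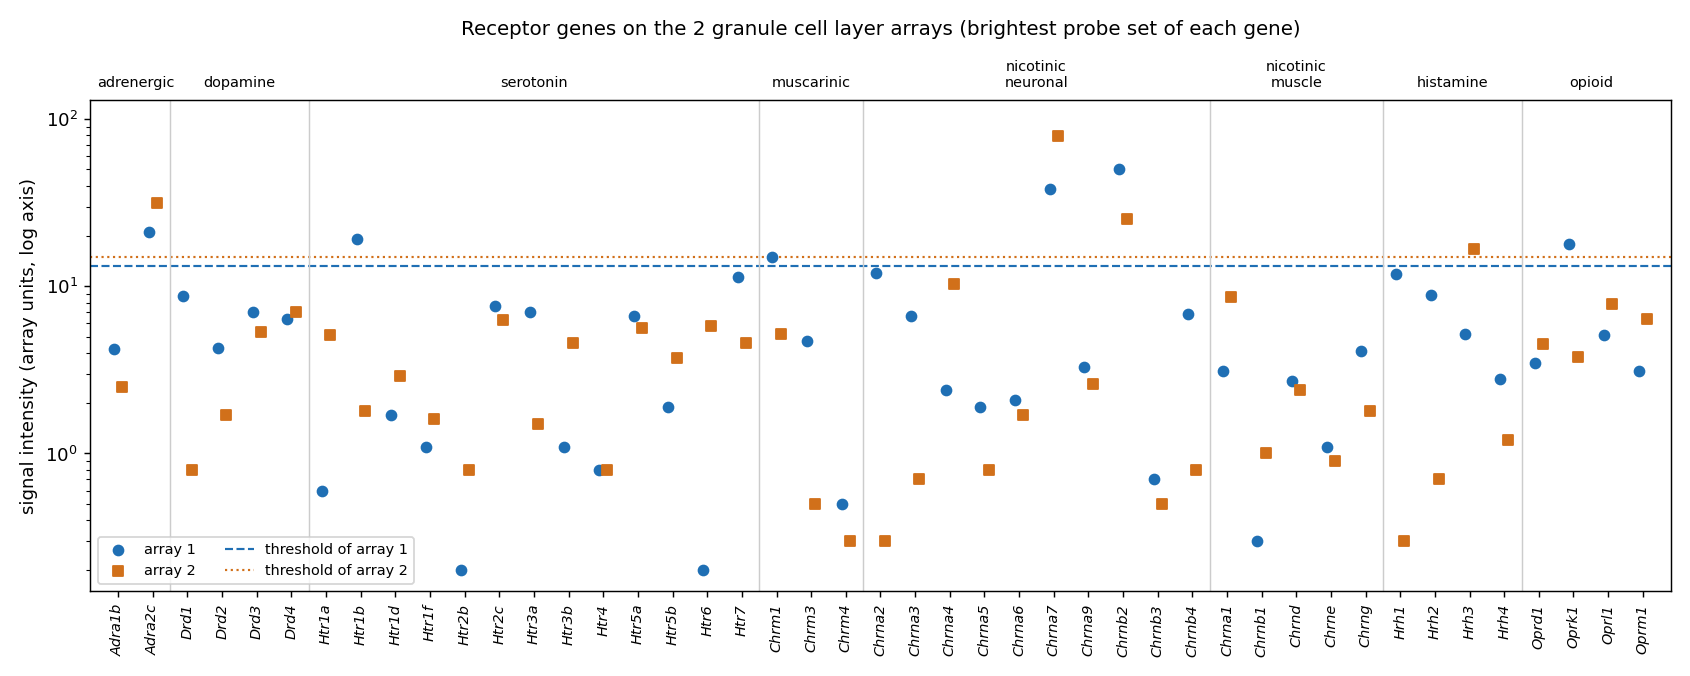
Signal intensity (log axis, array units) of the brightest probe set of each of the 45 receptor genes on array 1 (circles) and array 2 (squares), ordered by family. Dashed and dotted lines are the background thresholds of 13.25 and 14.9. Both points lie above the lines for Adra2c, Chrna7 and Chrnb2 only.

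Among the adrenergic receptors, Adra2c, which couples to inhibitory G proteins and lowers cyclic AMP, had an intensity of 21.2 on array 1 and 31.4 on array 2 (26.3 ± 7.21, SD, n = 2). These values were 1.6 and 2.1 times the thresholds. On each array, 1 of the 87 background genes was as high or higher (Nppa, also 21.2, and Tff1, 47.3, named after their values were seen), so Adra2c passed narrowly. Its difference between the arrays was -0.57 on the log2 scale (array 1 minus array 2). Adra1b, which activates phospholipase C, had 4.2 and 2.5 and stayed below both thresholds.

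Of the 10 neuronal nicotinic subunit genes, 2 were above background. Chrna7, whose product can form a calcium-permeable channel by itself, had an intensity of 38.4 on array 1 and 79.8 on array 2 (59.1 ± 29.3, SD, n = 2). No background gene was as high on either array. Chrnb2, which joins alpha subunits such as Chrna4 in the most common type of nicotinic receptor in brain, had 50.4 and 25.3 (37.9 ± 17.7, SD, n = 2), and 1 background gene was higher on array 2. The arrays differed in opposite directions for these subunits: Chrna7 was lower on array 1 (log2 difference -1.06) and Chrnb2 higher (0.99). At the 99th percentile threshold (21.1 and 26.7), Chrnb2 no longer passed, while Chrna7 and Adra2c did, as did 38.5% of named genes. Both outcomes were close: Adra2c had 21.2 against 21.11 on array 1, and Chrnb2 missed on array 2 with 25.3 against 26.66.

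The usual alpha partner of Chrnb2 in brain was not seen above background. Chrna4 had 2.4 on array 1 and 10.3 on array 2 at its brightest probe set, and its other probe sets were also below the threshold. Chrna9, known from hair cells of the inner ear, had 3.3 and 2.6. Chrna2, Chrna3, Chrna5, Chrna6, Chrnb3 and Chrnb4 were below as well, between 0.7 and 12.0 on array 1 and between 0.3 and 1.7 on array 2. None of the 5 muscle-type subunit genes passed. Chrna1 had 3.1 and 8.6 and Chrng 4.1 and 1.8, and Chrnb1, Chrnd and Chrne lay between 0.3 and 2.7.

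None of the 13 serotonin receptor genes was above background on both arrays. Htr1b, an inhibitory receptor often found on axon terminals, had 19.3 on array 1 but 1.8 on array 2. The value of array 2 is below the threshold, and 63 of the 87 background genes were as high or higher on array 2. Htr7, which raises cyclic AMP, had 11.4 and 4.6, and Htr2c, which activates phospholipase C, had 7.6 and 6.3. The channel subunits Htr3a (7.0 and 1.5) and Htr3b (1.1 and 4.6), named for their role as channels after their values were seen, were also below. Htr1a, Htr1d, Htr1f, Htr2b, Htr4, Htr5a, Htr5b and Htr6 lay between 0.2 and 6.6 on array 1 and between 0.8 and 5.8 on array 2.

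None of the 4 measured dopamine receptor genes passed on either array. Drd4 had 6.4 and 7.0 and Drd3 7.0 and 5.3, both of the inhibitory class. Drd1, which raises cyclic AMP, and Drd2, which lowers it, lay between 0.8 and 8.7 over both arrays.

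Of the 3 muscarinic receptor genes, Chrm1, which activates phospholipase C, had 15 on array 1 and 5.2 on array 2. It passed on array 1 by a factor of 1.13. Chrm3, of the same coupling class, had 4.7 and 0.5, and the inhibitory Chrm4 had 0.5 and 0.3.

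Of the 4 histamine receptor genes, Hrh3, an inhibitory receptor that limits transmitter release, had 5.2 on array 1 and 16.7 on array 2. On array 2 it exceeded the threshold by a factor of 1.12, with 4 background genes as high or higher. The phospholipase-coupled Hrh1 had 11.8 and 0.3, the cyclic AMP-raising Hrh2 had 8.9 and 0.7, and Hrh4, known mainly from blood cells, was below on both arrays.

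Of the 4 opioid receptor genes, Oprk1, the kappa receptor, had 17.8 on array 1 and 3.8 on array 2. Its other probe set gave 22.9 and 0.4, so both probe sets were above threshold on array 1 and below it on array 2. Oprl1, the nociceptin receptor, had 5.1 and 7.8, Oprm1, the mu receptor, 3.1 and 6.4, and Oprd1, the delta receptor, was also below.

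Several probe sets existed for 25 of the 45 genes, and the genes above background were each called from a single probe set. Of the 81 probe sets, 3 were above the probe set thresholds (12.8 and 13.95) on both arrays, against 37.2% of the 34958 named probe sets. For Adra2c, 1 of 4 probe sets passed on both arrays, and another gave 22.6 on array 1 and 2.0 on array 2. For Chrna7 1 of 2 passed, and the other gave 7.4 and 0.9. For Chrnb2 1 of 3 passed, and the others gave 7.8 and 2.0, and 5.9 and 8.0. Disagreement of this kind was common: of 5807 named genes with several probe sets and at least 1 of them above those thresholds on both arrays, 77.2% also had a probe set that was not.

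All 3 passing probe sets were designed from expressed sequence tags, which come mostly from transcript ends. The probe sets of these genes designed from a RefSeq mRNA were not above background on both arrays. Other tag-based probe sets of the same genes also failed: for Adra2c 1.8 and 2.9, and 4.9 and 0.3, and for Chrnb2 5.9 and 8.0. Of all 31 tag-based receptor probe sets 3 passed (9.68%), against 38.5% of tag-based probe sets over all named genes. Of 28 mRNA-based receptor probe sets 0 passed, against 36.6%. Of the 11 receptor genes with probe sets of both kinds, 3 passed with a tag-based probe set alone and 0 with an mRNA-based one alone. Over all 1560 named genes with both kinds these shares were 20.3% and 17.9%. The control probe sets for the 3′ end of Gapdh were 10.1 and 10.4 times as bright as those for the 5′ end on the respective arrays, and those of Actb 29.0 and 37.9 times. The part of this difference in the disagreement between probe sets was not tested. Where the probe sets lie on their transcripts was not analysed here.

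**Figure D2:**
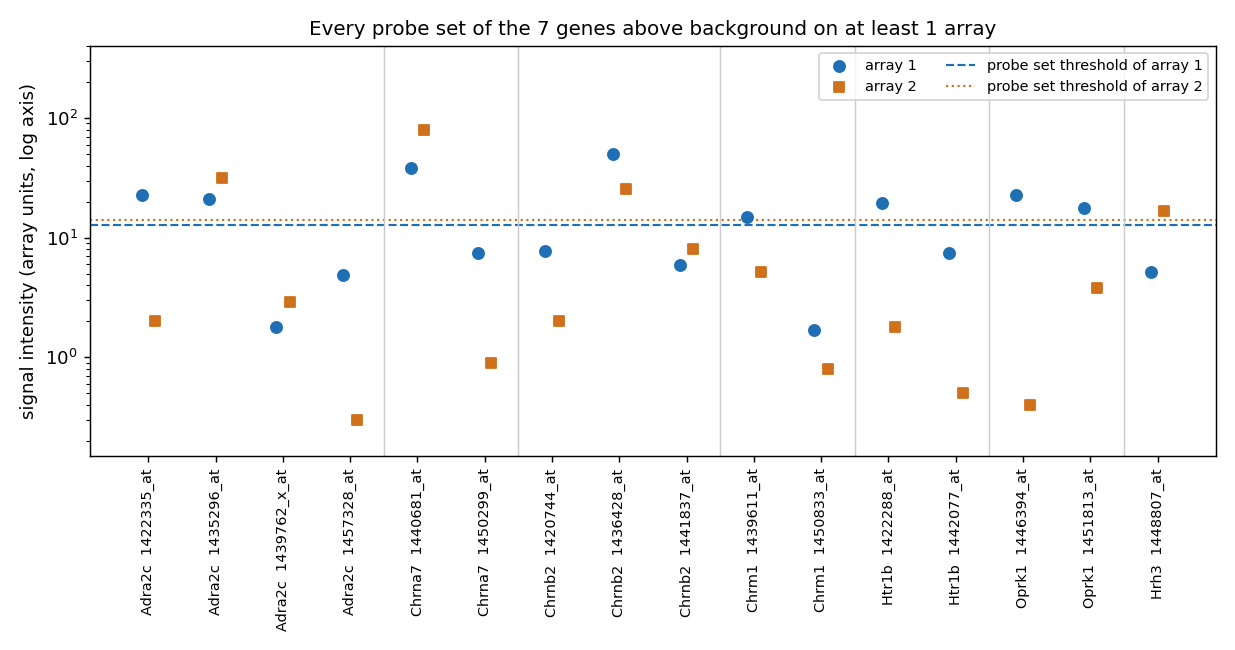
Signal intensity (log axis, array units) of every probe set of the 7 receptor genes above background on at least 1 array, with array 1 as circles and array 2 as squares. Lines mark the probe set thresholds of 12.8 and 13.95. For Adra2c, Chrna7 and Chrnb2 a single probe set lies above both lines, and both Oprk1 probe sets are high on array 1 only.

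Sequence upstream of the start site was available for 35 of the 45 genes, from RefSeq on GRCm38.p6. The 250 bases before the start are shown for the 3 genes above background, and for 2 genes below it on both arrays: Htr7, with the most CG dinucleotides of those, and Chrne, which shares the fewest with Drd3 and Htr3b. CG dinucleotides are in capitals, since CpG-rich starts are a known feature of widely expressed genes. The windows are chr5:35278316-35278565 on the plus strand for Adra2c, and on the minus strand chr7:63212527-63212776 for Chrna7, chr3:89764633-89764882 for Chrnb2, chr11:70619195-70619444 for Chrne and chr19:36057361-36057610 for Htr7.
Adra2c: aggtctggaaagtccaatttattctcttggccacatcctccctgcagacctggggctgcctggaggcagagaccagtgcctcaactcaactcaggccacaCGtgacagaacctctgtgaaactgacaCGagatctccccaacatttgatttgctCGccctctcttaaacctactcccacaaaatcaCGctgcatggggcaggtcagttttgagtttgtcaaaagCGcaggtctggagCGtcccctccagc
Chrna7: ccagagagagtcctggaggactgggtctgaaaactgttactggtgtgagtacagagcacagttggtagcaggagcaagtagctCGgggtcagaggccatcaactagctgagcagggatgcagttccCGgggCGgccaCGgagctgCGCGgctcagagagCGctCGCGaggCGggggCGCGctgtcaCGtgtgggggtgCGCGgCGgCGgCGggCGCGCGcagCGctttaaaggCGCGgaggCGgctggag
Chrnb2: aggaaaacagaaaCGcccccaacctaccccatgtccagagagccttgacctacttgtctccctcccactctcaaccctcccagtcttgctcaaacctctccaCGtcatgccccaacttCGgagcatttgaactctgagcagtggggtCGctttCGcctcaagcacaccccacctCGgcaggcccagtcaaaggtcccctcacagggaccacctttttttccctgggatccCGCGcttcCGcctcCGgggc
Chrne: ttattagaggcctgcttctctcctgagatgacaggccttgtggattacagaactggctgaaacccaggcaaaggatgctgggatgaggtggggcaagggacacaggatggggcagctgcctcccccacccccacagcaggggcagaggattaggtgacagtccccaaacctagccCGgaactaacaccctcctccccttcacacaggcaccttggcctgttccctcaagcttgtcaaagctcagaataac
Htr7: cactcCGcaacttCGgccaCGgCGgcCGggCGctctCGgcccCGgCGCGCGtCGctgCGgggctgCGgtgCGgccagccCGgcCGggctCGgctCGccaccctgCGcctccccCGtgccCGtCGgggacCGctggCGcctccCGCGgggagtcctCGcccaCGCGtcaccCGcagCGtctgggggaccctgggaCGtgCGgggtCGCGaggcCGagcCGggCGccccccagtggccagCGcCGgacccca
The windows held 6 CG dinucleotides for Adra2c, 25 for Chrna7, 10 for Chrnb2, 1 for Chrne and 41 for Htr7.

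A window was called CpG-rich with at least 50% G+C and an observed-to-expected CpG ratio of at least 0.6. Where a gene had several start sites, the window with the most CG dinucleotides was used. Of the receptor genes, 14 of 35 (40.0%) had a CpG-rich window, against 52.7% of 14369 named genes. Over all named genes, CpG-rich genes were above background in 66.3% of 7579 cases and the others in 27.0% of 6790. Among the receptor genes these counts were 1 of 14 (7.14%, Chrna7) and 2 of 21 (9.52%, Adra2c and Chrnb2). The share of receptor genes above background was thus under the share of all named genes in both CpG classes. The short motif GGGCGG, read on both strands, was in the windows of 16 of 35 receptor genes (45.7%) and 52.1% of named genes. TATAAA, read the same way, was in 2 of 35 (5.71%) and 8.46%. These counts describe letters in a fixed window and not binding.

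**Figure D3:**
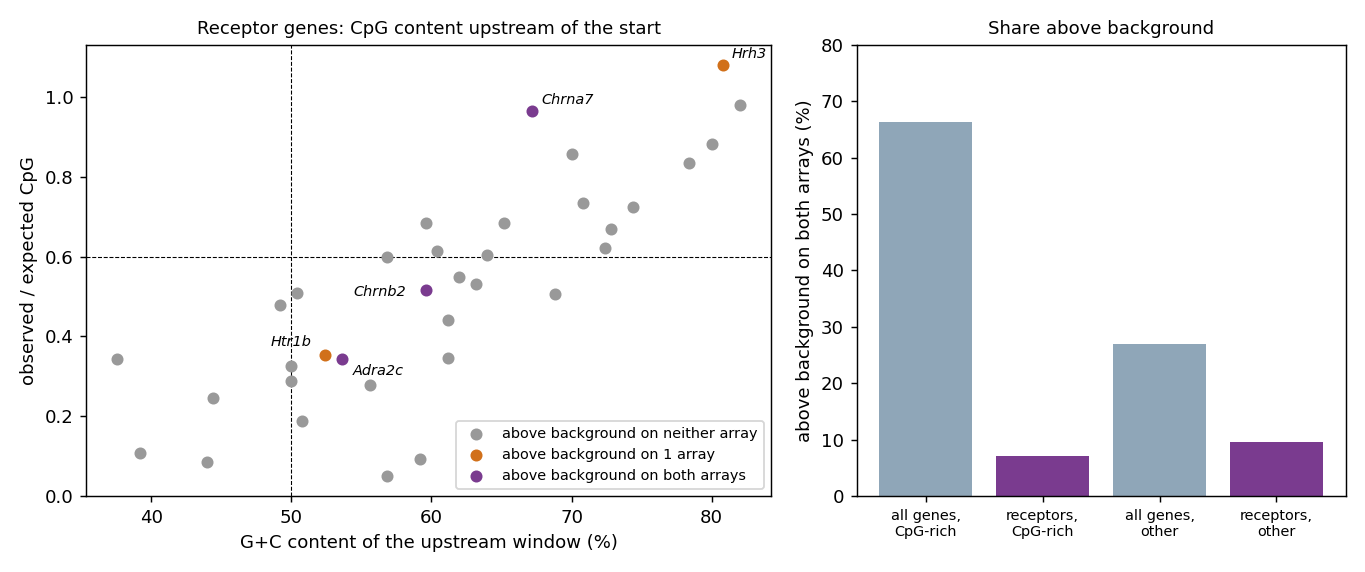
Left, G+C content (%) against the observed-to-expected CpG ratio in the 250 bases upstream of 35 receptor genes, with colour for the number of arrays on which the gene was above background and dashed lines at the limits for CpG-rich. Right, percent of genes above background on both arrays, 66.3% and 27.0% for CpG-rich and other named genes against 7.14% and 9.52% for the receptor genes.

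Other genes of the signalling pathways were counted beside the 46.1% of all named genes above background. Of 10 G protein alpha subunit genes 9 passed, among them the inhibitory Gnai1 (3068 on array 1 and 3284 on array 2) and Gnai2 (202 and 212), the stimulatory Gnas (865 and 807) and the phospholipase-activating Gnaq (310 and 387). Gna14 had 5.0 and 3.7. Of 16 effector genes 10 passed, among them the adenylyl cyclase Adcy1 (1756 and 1839), the phospholipases Plcb4 (1799 and 1887) and Plcb1 (121 and 142), and Kcnj3 (331 and 382), a subunit of the potassium channel that inhibitory G proteins open. Plcb3 (0.5 and 3.8) and Kcnj5 (5.0 and 3.6) did not. Of 8 receptor kinase and arrestin genes 3 passed: Grk6 (337 and 274), Grk3 (85.3 and 325) and Arrb2 (52.2 and 34.9). Grk1 and Grk4 were below on both arrays, with 3.8 or less. Without probe sets of the _x_at, _s_at and _a_at kinds, 6 G protein, 10 effector and 1 of the kinase and arrestin genes passed, against 41.2% of named genes. When all probe sets of a gene were averaged, these counts were 7, 6 and 2, against 33.8% of named genes.

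Of 10 genes for proteins that assemble or tune nicotinic receptors, 5 were above background, near the 46.1% of all named genes, and 3 when all probe sets of a gene were averaged. Lynx1, a membrane-anchored brake on nicotinic receptors, had 1497 and 1377. Ric3, a chaperone for nicotinic receptors including that of Chrna7, had 67.3 and 49.1, and Tmem35a, another such assembly factor, 27.5 and 72.4. Ly6e, of the same protein family as Lynx1, had 72.2 and 49.9. The neuromuscular junction genes Rapsn (0.5 and 1.1) and Musk (4.7 and 1.5) were below.

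Genes that make, pack or take up the transmitters were mostly below background, with 1 of 14 for monoamines and histamine and 0 of 3 for acetylcholine. The cell bodies that release monoamines lie outside the cerebellum. The exception was Slc29a4, a low-affinity plasma membrane monoamine transporter, with 221.8 on array 1 and 186.6 on array 2. The vesicular transporter Slc18a2 had 0.1 and 3.6, the serotonin transporter Slc6a4 4.4 and 0.3, the vesicular acetylcholine transporter Slc18a3 4.8 and 0.6 and the choline transporter Slc5a7 2.7 and 7.9. Without probe sets of the _x_at, _s_at and _a_at kinds, which can match several transcripts, 0 of the monoamine genes passed.

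Of 7 genes for enzymes that break the transmitters down, 4 passed (57.1%), against 46.1% of all named genes. They were the monoamine oxidases Maoa (51.1 and 60.4) and Maob (22.0 and 23.7), the histamine methyltransferase Hnmt (24.2 and 34) and the aldehyde dehydrogenase Aldh2 (27.1 and 25.4). The cholinesterase genes Ache (6.2 and 11.3) and Bche (8.3 and 5.4) did not. At the 99th percentile threshold this count was 2.

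Of 4 opioid peptide precursor genes 2 passed (50%), near the 46.1% of all named genes. None of the opioid receptor genes passed on both arrays. Penk, the precursor of enkephalins, had 138.2 and 155.2, and Pomc, that of beta-endorphin and several hormones, had 17.7 and 37.3. Pdyn, the dynorphin precursor (1.0 and 1.8), and Pnoc, the nociceptin precursor (7.1 and 0.9), were below. The count was 1 of 4 at the 99th percentile threshold, when all probe sets of a gene were averaged, and without _x_at, _s_at and _a_at probe sets. Together the pathway lists had 34 of 72 genes above background (47.2%), close to the 46.1% of all named genes.

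Other receptor groups were set beside these genes as a description, with no test. Of 14 GABA receptor genes 7 were above background, of 21 glutamate receptor genes 7, and of 31 receptors for peptides, purines and cannabinoids 5. In the last group the cannabinoid receptor Cnr1 had 1191 and 1341 and the corticotropin-releasing hormone receptor Crhr1 116 and 111, while Npy2r (0.6 and 0.5) was below. When all probe sets of a gene were averaged, the GABA receptor count was 4 and that of peptide, purine and cannabinoid receptors 2.

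**Figure D4:**
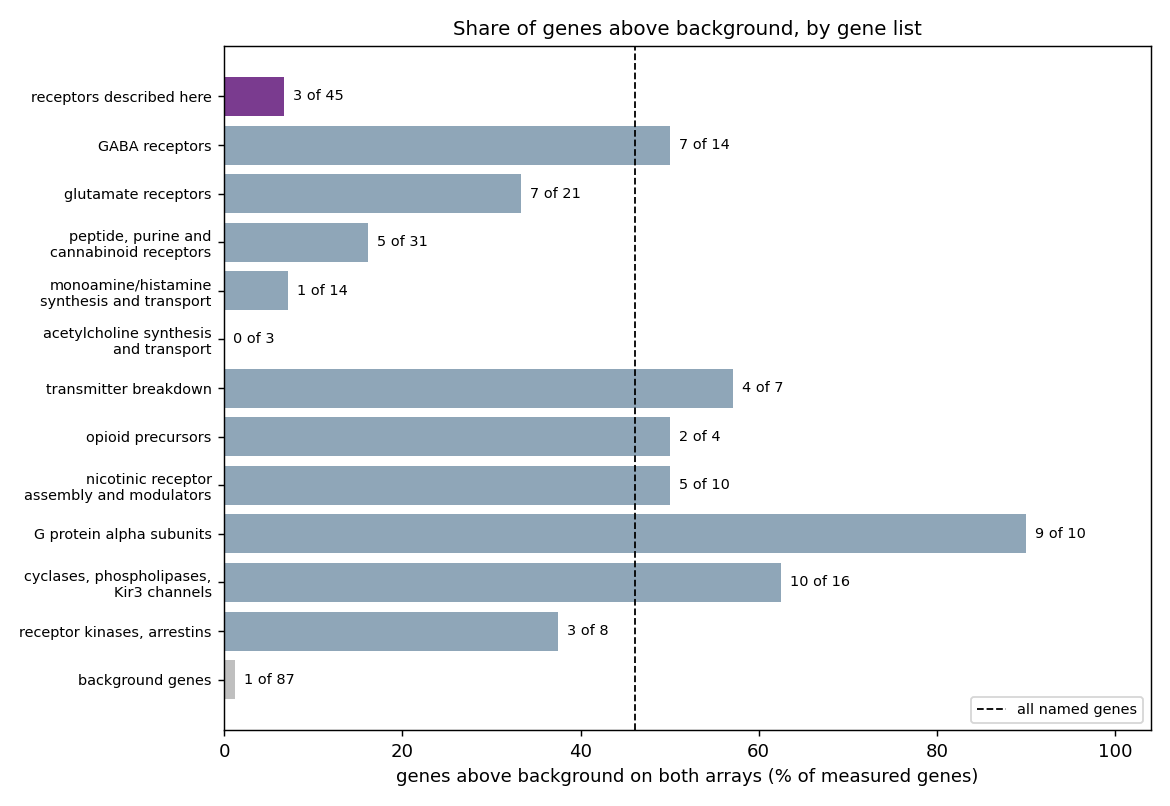
Percent of measured genes above background on both arrays in each gene list, with counts beside the bars and a dashed line at the 46.1% of all named genes. The receptor genes described here reach 6.67% and the background genes 1.15%.

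Of the 7 receptor genes that passed on at least 1 array, 5 differed by at least 2-fold between the arrays, as did 23.6% of the 10325 named genes above background on at least 1 array. Of these 5, 4 passed only through the array on which they were high, so the filter itself selects the gap, and nothing particular to the receptors is read from this count. The 5 genes were Htr1b, Oprk1 and Chrm1, higher on array 1, and Hrh3 and Chrna7, higher on array 2. The median log2 difference of the 7 genes was 0.99, the value of Chrnb2, against -0.05 over the 10325 named genes. It rests on 7 genes, of which 4 passed on 1 array only, and nothing particular to the receptors is read from it. The median was 0.30 over all 45 genes and -0.57 over those above the 99th percentile threshold on at least 1 array. Over the 38 receptor genes below both thresholds the log2 differences had an SD of 2.16, and over all 7869 such genes it was 2.01, and 55.3% of the former and 56.0% of the latter differed by at least 2-fold. Of those 38, 23 were higher on array 1, 14 on array 2 and 1 was equal, while 47.5% of all such genes were higher on array 1. With log2(value + 16), which damps differences of low values, 0 of the 7 genes differed by 2-fold.

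**Figure D5:**
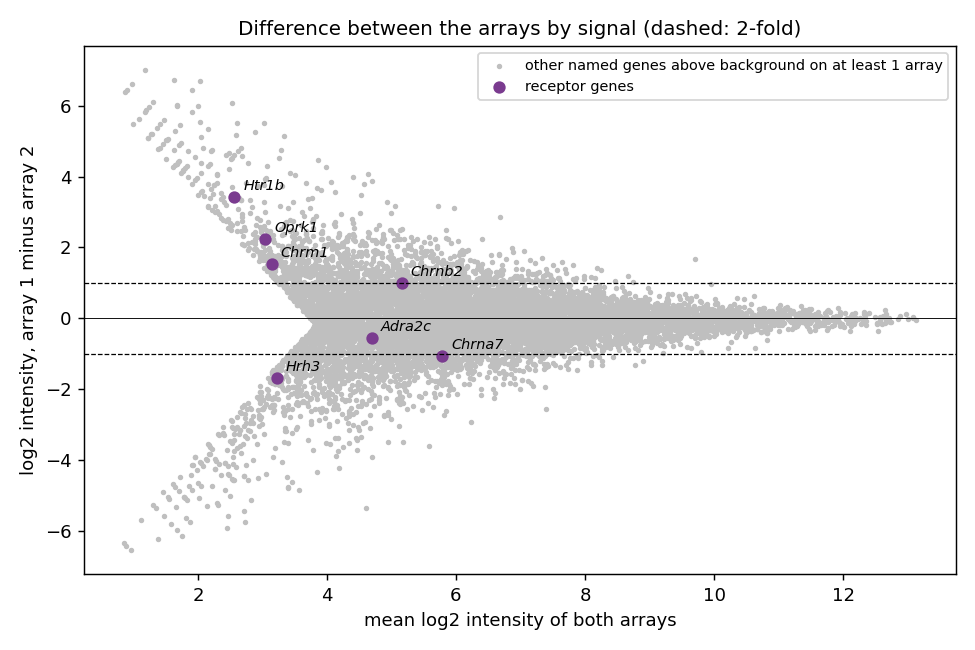
Log2 difference between the arrays (array 1 minus array 2) against the mean log2 intensity, for named genes above background on at least 1 array (grey) and the 7 receptor genes among them (purple), with dashed lines at 2-fold. The receptor genes lie between a mean log2 intensity of 2.56 (Htr1b) and 5.79 (Chrna7). The grey points spread most at the dimmest end, where a gene is plotted only through the array on which it was high.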

How the data were processed

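The deposited values are linear signal intensities, 1 for each probe set on each array. Per the submitters' processing notes the values came from GCOS, with version and settings not given in the sources used here. Names for the 45101 probe sets came from the platform annotation, with 1 symbol for 34958, several for 932 and none here for 9211. All 45 receptor genes matched RefSeq by gene ID. Values were used as deposited (median 7.9 and 8.3), and zeros were set to 0.1 before log2. Each gene took the values of its brightest probe set by mean log2 intensity. Thresholds came from 87 measured of 95 listed background genes. Every receptor gene was named or counted. Values were given for those above background on either array and up to 2 per family below it, and for up to 4 genes above and 2 below on other lists. The members and lists were chosen with earlier results of these data known. With 2 arrays of 1 group no p-value is given, and their number limits the precision. The procedure was tested on simulated data with Python 3.11.15, pandas 2.3.3 and NumPy 2.4.6. The simulated differences between the arrays were placed only in genes brighter than every receptor gene. That test therefore does not cover calls near the thresholds.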

Additional observations from a re-analysis of the deposited data

How the results depend on the processing

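Of the receptor genes, 3 were above background at the 90th percentile threshold, with olfactory and vomeronasal receptor genes as background, under quantile normalization and median scaling, and without _x_at, _s_at and _a_at probe sets. The same 3 genes, Adra2c, Chrna7 and Chrnb2, passed in each of these. The count was 2 at the 99th percentile, 0 when all probe sets of a gene were averaged, and 4 and 6 with array 2 and array 1 alone. The number at least 2-fold apart, 5 as reported, was 8 at the 90th percentile, 1 at the 99th and 9 with the olfactory background. It was 6 under quantile normalization, 2 with the mean of all probe sets, 26 of all 45 genes with no filter and 0 with log2(value + 16). Of named genes passing the reported filter 23.6% were 2-fold apart. This share was not taken under the alternatives, so nothing particular to the receptors is read from these counts. The median log2 difference was -0.57 at the 99th percentile and between 0.3 and 1.42 under the other alternatives run for it. The pathway lists together gave 23 to 39 genes. For single lists and genes, 174 values stayed within 1.5 times the count or within the SD, and 20 moved beyond it; the cause was not tested. No paired analysis was possible because the samples form 1 group. The arrays' low signal limits every call made here near the thresholds.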
